A study of Mus musculus with 2 samples.

Results

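Regulatory T (Treg) cells are CD4 T cells that depend on the transcription factor Foxp3 and hold immune responses in check. The genes described here are 8 of the 16098 genes counted in single Treg cells, namely Epcam, Lilrb4a, Rln3, Actn2, Hoxb3, Hoxb4, Gm14085 and Plac8. They have in common that they are better known from epithelium, muscle, brain, embryo or other blood cells than from Treg cells. They were chosen from earlier results on these same data as genes enriched in rescued Treg cells, so their rescued to control ratios are given as a description and support nothing. The enrichment was not seen for all of them in these counts. Plac8 had 273 unique molecular identifiers (UMIs, tags that each mark 1 captured RNA molecule) in the rescued library and 274 in the control library, and Gm14085 had 713 and 572.

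The study asked how Treg cells behave long after Foxp3 was switched back on in mice that had lacked it. GFP+ Treg cells were sorted from spleen and lymph node of male C57BL/6 mice labelled as aged 7 months, and the study's methods give 7 months after treatment. RNA was counted from its 3′ end in droplets (10x Chromium), with 1 library per group. Cells of the control library came from 5 pooled mice with the alleles Foxp3DTR-GFP/y and Cd4creERT2, whose Foxp3 gene works from birth and also encodes the diphtheria toxin receptor and GFP. Those of the rescued library came from 4 pooled mice with Foxp3LSL/y and Cd4creERT2. There a loxP-flanked stop cassette keeps Foxp3 off until Cre recombinase cuts it out. On postnatal day 14 all mice of both groups were given 4-hydroxytamoxifen once. This compound activates a CreERT2 recombinase made under control of the Cd4 gene, which in both groups also switches on a tdTomato reporter at the Rosa26 locus. The reporter therefore marks descent from cells that made the recombinase at the time of treatment.

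There were 3634 control cells (median depth 3739.5 UMIs) and 3390 rescued cells (median depth 3846.5 UMIs). The libraries shared 3 cell barcodes. Foxp3 was higher in the rescued library by 2.53 on the log2 scale (95% counting interval 2.45 to 2.62), but the libraries carry different engineered Foxp3 alleles, and how these alter counting at the 3′ end was not tested. The T cell markers were present in both libraries. Of 8 myeloid markers, 7 had a UMI in the control and 6 in the rescued library. Cst3, which many cells make, held 98.2% and 98.1% of these UMIs. Csf1r, a defining marker of macrophages, gave no UMI in the counts used here. Since each group is 1 library, differences between groups have no replicate check and were not tested. All intervals are 95% intervals for counting error only, and mouse-to-mouse variation was not measured.

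As background, most of these genes have a known role elsewhere. Epcam is an adhesion molecule that joins epithelial cells to each other, and Lilrb4a is an inhibitory receptor with immunoglobulin-like domains found on myeloid and activated lymphoid cells. Rln3 encodes relaxin-3, a peptide of the insulin and relaxin family known mainly as a neuropeptide. Actn2 encodes an alpha-actinin that anchors actin filaments in muscle. Hoxb3 and Hoxb4 are neighbouring homeobox transcription factors that pattern the embryo and are active in blood stem cells. Gm14085 lies beside the nucleoside transporter Slc28a2, and RefSeq calls it Slc28a2b. Plac8 encodes a small cysteine-rich protein first described in placenta. The genes were set against a pair of markers of tissue homing. Ccr9 is a chemokine receptor that guides lymphocytes to the small intestine and is induced by retinoic acid, and Itgae encodes CD103, the integrin chain that binds E-cadherin on epithelial cells.

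Because retinoic acid acts on Ccr9 and on Hox genes in other settings, the DNA before the start sites was read for the letters AGGTCA, the half-site recognised by retinoic acid receptors and other nuclear receptors. RefSeq start sites (GRCm38.p6) were at hand for 6 of the 8 genes, with 7 entries since Plac8 has a pair. Hoxb3 and Lilrb4a had none. Bases 250 to 51 before each start were searched on both strands. The half-site stood before Rln3, Actn2 and Hoxb4, and 11.4% of 32851 such windows of all genes held it. The windows of these 3 genes follow, with the half-site in capitals, and the window of Epcam is shown beside them because Epcam had the most UMIs of the 8 genes. In Hoxb4 the letters read TGACCT, the half-site on the opposite strand.
Rln3, chr8:84045030-84045229, minus strand: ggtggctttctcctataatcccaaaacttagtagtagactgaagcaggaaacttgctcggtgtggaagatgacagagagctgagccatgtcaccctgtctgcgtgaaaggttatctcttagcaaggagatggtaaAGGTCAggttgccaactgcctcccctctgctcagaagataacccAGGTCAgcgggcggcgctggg
Actn2, chr13:12340783-12340982, minus strand: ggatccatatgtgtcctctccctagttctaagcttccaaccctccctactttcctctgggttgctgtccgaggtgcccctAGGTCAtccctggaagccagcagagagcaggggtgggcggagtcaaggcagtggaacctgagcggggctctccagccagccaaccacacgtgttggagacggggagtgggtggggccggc
Hoxb4, chr11:96318017-96318216, plus strand: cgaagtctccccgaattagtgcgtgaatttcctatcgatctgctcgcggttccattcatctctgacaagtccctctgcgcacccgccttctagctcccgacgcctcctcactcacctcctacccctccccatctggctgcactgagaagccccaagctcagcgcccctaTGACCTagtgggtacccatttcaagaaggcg
Epcam, chr17:87635729-87635928, plus strand: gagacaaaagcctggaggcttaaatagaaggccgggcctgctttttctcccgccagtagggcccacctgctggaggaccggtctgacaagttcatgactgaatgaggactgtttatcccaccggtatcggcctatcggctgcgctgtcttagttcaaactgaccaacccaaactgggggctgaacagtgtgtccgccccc
Rln3 held the half-site at 2 places, which began 115 and 71 bases before the start. The match of Actn2 began 170 bases and that of Hoxb4 81 bases before the start. The half-site did not stand before Epcam, Gm14085 or either start of Plac8. The forkhead core GTAAACA, the STAT palindrome TTCNNNGAA and the Hox and Pbx motif TGATTGAT were searched in the same way and had no match before any of the 6 genes; they stood in 2.58%, 5.76% and 0.581% of all windows. These matches are letters in the sequence and do not show that a factor binds there. Any link of the half-site to Ccr9 was not tested.

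Levels were compared first, as CPM, the UMIs of a gene scaled to the total of its library. In 4 of the 8 genes the CPM was at least 2-fold higher in the rescued library, where 1.72% of 9779 genes with 100 or more UMIs were. Since this contrast chose the genes, nothing is read from that share. The 4 genes were Rln3, Lilrb4a, Epcam and Actn2. Actn2 (log2 ratio 1.16) was the member just inside this limit and Hoxb3 (0.69) the one just outside, and over all genes the median log2 ratio was 0.024.

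**Figure D1:**
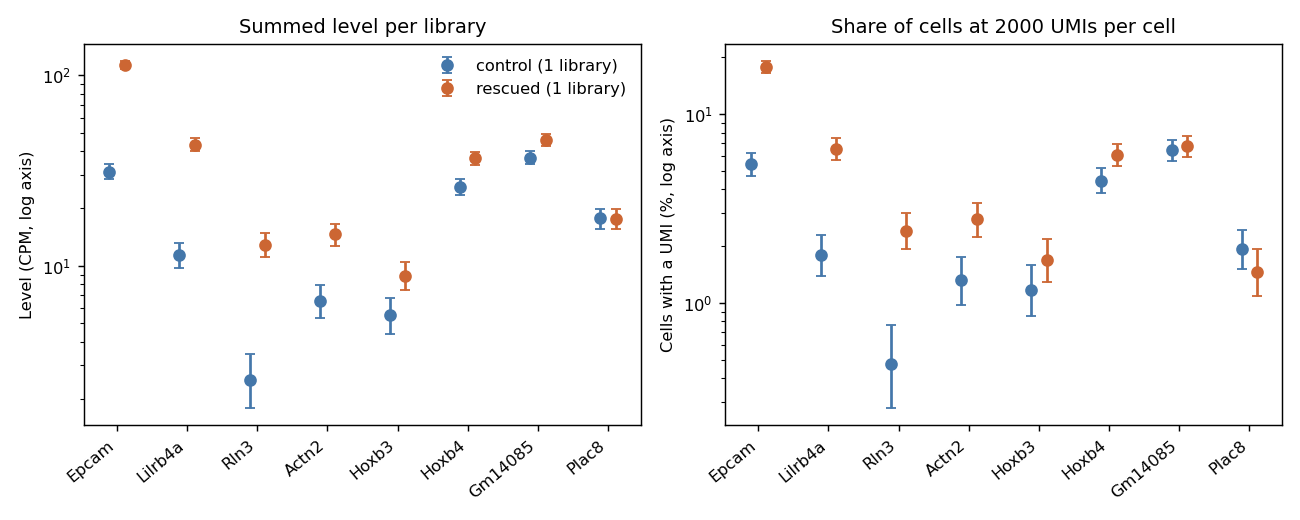
Level of each gene in CPM (left) and the share of cells with a UMI after thinning every cell to 2000 UMIs (right), both on log axes, for the control and the rescued library (1 library each, bars are 95% counting intervals). Epcam, Lilrb4a, Rln3 and Actn2 sit clearly higher in the rescued library, whereas the points of Plac8 overlap.

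Epcam and Lilrb4a, the surface proteins, stood 3.63-fold and 3.82-fold higher in the rescued library. Epcam (ENSMUSG00000045394, chromosome 17, 87635979 to 87651129) had 482 UMIs in the control library and 1758 in the rescued library, which are 31.2 and 113 CPM. The log2 ratio was 1.86 (1.71 to 2.01), and it stood at rank 28 from the highest of the 9779 genes. To compare shares of cells at equal depth, 2000 UMIs were drawn at random from each cell, and 65 control and 33 rescued cells with fewer were not used. Epcam was then found in 5.44% of control cells (4.71 to 6.23%) and in 17.8% of rescued cells (16.5 to 19.1%), and as counted in 10.04% and 30.5%. It was the most widely detected of the 8 genes in the rescued library, and still most rescued cells lacked an Epcam UMI. Lilrb4a (ENSMUSG00000112148, chromosome 10, 51490956 to 51496611) had 175 and 673 UMIs, or 11.3 and 43.3 CPM, a log2 ratio of 1.93 (1.69 to 2.18). Its share at equal depth was 1.79% in control and 6.55% in rescued cells. No group of cells that should lack these genes was set apart in these sorted libraries, so the share that free RNA alone would give was not measured for any gene here.

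Rln3 had the highest ratio of the 8 on the fewest control UMIs. It (ENSMUSG00000045232, chromosome 8, 84042929 to 84045000) had 39 UMIs in the control and 200 in the rescued library, or 2.52 and 12.9 CPM, a log2 ratio of 2.35 (1.85 to 2.88) at rank 10. At equal depth a Rln3 UMI was found in 17 of 3569 control cells (0.476%) and in 81 of 3357 rescued cells (2.41%). The relaxin gene was thus rare in both libraries. Actn2 (ENSMUSG00000052374, chromosome 13, 12269426 to 12340760) had 101 and 227 UMIs, or 6.54 and 14.6 CPM, a log2 ratio of 1.16 (0.82 to 1.51). Its share at equal depth was 1.32% (0.969 to 1.75%) and 2.77% (2.24 to 3.38%).

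The Hox genes lay below the 2-fold line. Hoxb3 (ENSMUSG00000048763, chromosome 11, 96323326 to 96347930) had 85 control and 138 rescued UMIs, a log2 ratio of 0.69 (0.29 to 1.10). Hoxb4 (ENSMUSG00000038692, chromosome 11, 96318267 to 96321638) had 402 and 570 UMIs, a log2 ratio of 0.50 (0.31 to 0.68). The shares at equal depth were 1.18% and 1.70% for Hoxb3, with intervals that overlapped, and 4.46% and 6.08% for Hoxb4, with intervals that did not. Of these transcription factors, Hoxb4 was found in more cells of both libraries.

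Gm14085 and Plac8 differed least. Gm14085 (ENSMUSG00000079071, chromosome 2, 122484941 to 122528040) had a log2 ratio of 0.31 (0.15 to 0.47), or 37.03 and 45.9 CPM in control and rescued cells. Its shares at equal depth, 6.47% and 6.79%, had overlapping intervals. Plac8 (ENSMUSG00000029322, chromosome 5, 100553725 to 100572245) had a log2 ratio of -0.01 (-0.26 to 0.23), and it ranked 5678 of 9779. At equal depth 1.93% of control cells and 1.46% of rescued cells had a Plac8 UMI. Over all cells Plac8 was not enriched in rescued cells. Its log2 ratio ranged from -0.35 to 0.36 in the subsets and scalings of the processing check. Among cells without a tdTomato UMI, which were not part of that check, it was 0.64 (0.20 to 1.09).

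The genes differed in how their UMIs were spread over cells. Rln3 was found at 1 UMI per cell in 37 of 38 control cells and in 136 of 165 rescued cells, and no cell held more than 3. Plac8 went the other way. As counted, 93 control cells and 74 rescued cells had a Plac8 UMI, and cells with 5 or more held 51.5% of its control UMIs and 66.3% of its rescued UMIs, up to 16 and 26 in 1 cell. For Ccr9 these shares were 37.7% and 67.1%. For Epcam, present in 1033 rescued cells, cells with 5 or more held 12.2% of rescued UMIs and 4.56% of control UMIs, and for Gm14085 they held 13.7% and 6.99%. Most Plac8 UMIs thus lay in few cells of each library, although 40.9% of its control and 43.2% of its rescued cells had 1 UMI. Leaving out the 5 cells richest in a gene in each library left the same number of members, 4, above 2-fold.

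**Figure D2:**
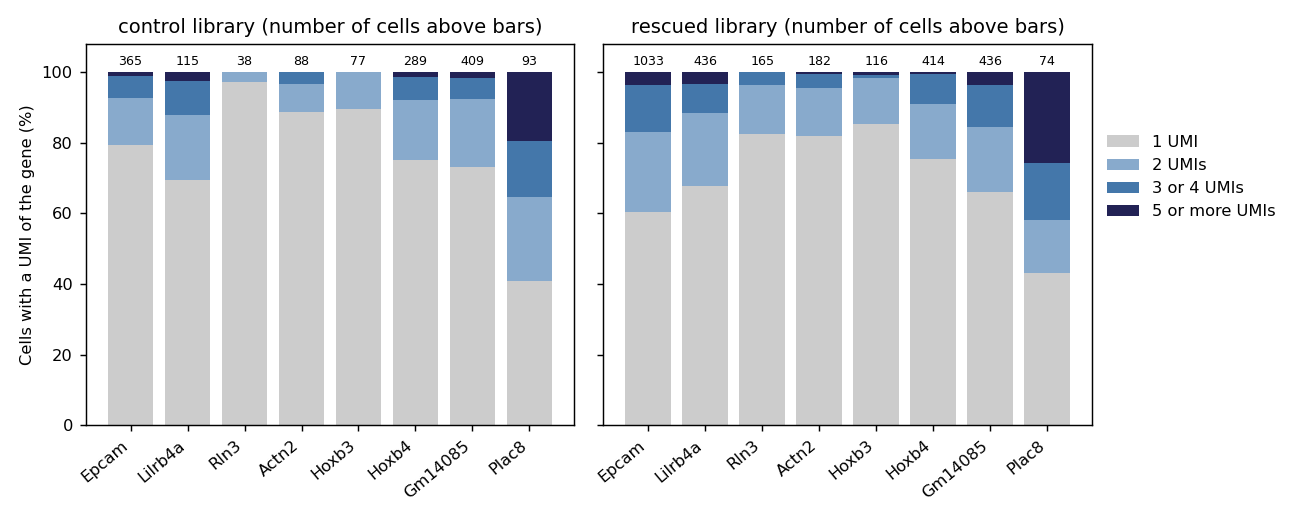
Share of cells with 1, 2, 3 or 4, and 5 or more UMIs of each gene, among the cells with a UMI of it, in the control and rescued libraries as counted (numbers of such cells above the bars). Plac8 has the largest part of cells with 5 or more UMIs in both libraries, and Rln3 and Hoxb3 are mostly at 1 UMI.

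Whether these genes lie in the same cells as the homing receptors was examined within each library. The genes were chosen with earlier results of these data known, so whether their choice was free of this comparison cannot be told. The counts below are therefore a description. At 2000 UMIs per cell, 322 of 3357 rescued cells and 110 of 3569 control cells had a Ccr9 UMI. Among genes in 50 or more rescued cells, 4.59% had a share at least 1.5-fold higher in Ccr9+ than in Ccr9- cells. Of the 7 members that met this minimum, 4 did, namely Hoxb3, Actn2, Hoxb4 and Gm14085. The member under the minimum, Plac8, was found in 49 cells and had a ratio of 5.01. In the control library 9.06% of such genes passed, and so did 4 of the 5 members that met the minimum. These were Plac8, Hoxb4, Lilrb4a and Gm14085, and of them only Hoxb4 and Gm14085 were also among the rescued 4. Hoxb3 and Actn2, in 42 and 47 control cells, were under the minimum there. No doublet caller was run. Without the deepest 3.5% of cells, 5 of all 8 members in rescued and 6 in control cells had a ratio of 1.5 or more, as with them.

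Hoxb3 had the highest ratio with Ccr9 in both libraries in the thinning used here. It was found in 24 of 322 rescued Ccr9+ cells (7.45%, 4.83 to 10.9%) and in 33 of 3035 Ccr9- cells (1.09%, 0.750 to 1.52%), a ratio of 6.85. In control cells it was found in 7 of 110 Ccr9+ cells (6.36%, 2.60 to 12.7%) and in 1.01% of Ccr9- cells, a ratio of 6.29. Read the other way, 42.1% of rescued cells with a Hoxb3 UMI also had a Ccr9 UMI, against 9.03% of cells without one. A single random thinning has its own noise, and the expectation over every possible thinning to 2000 UMIs gave ratios of 4.99 in rescued and 5.54 in control cells for Hoxb3. For Plac8 it gave 5.63 and 4.89, so the order of these genes in rescued cells turned. At 1000 UMIs per cell Hoxb3 stood at 2.81 in rescued and 2.87 in control cells, below Plac8 in both libraries (4.65 and 7.38) and below Actn2 in rescued cells (5.67).

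Plac8 and Hoxb4 shared cells with Ccr9 in a like way in both libraries. Plac8 was found in 17 rescued Ccr9+ cells (5.28%, 3.11 to 8.32%) against 1.05% of Ccr9- cells. In control cells the shares were 9.09% (4.45 to 16.1%) and 1.71%, a ratio of 5.33. Hoxb4 was found in 13.7% of rescued Ccr9+ cells (10.1 to 17.9%) and 5.27% of Ccr9- cells, and in control cells in 13.6% (7.84 to 21.5%) and 4.16%. The intervals of Ccr9+ and Ccr9- cells were apart for both genes in both libraries. Actn2, the muscle alpha-actinin, was found in 8.07% of rescued Ccr9+ cells (5.34 to 11.6%) and 2.21% of Ccr9- cells, but in control cells this rested on 4 Ccr9+ cells and the intervals overlapped. Gm14085 was found in 12.7% of Ccr9+ cells of each library, against 6.16% of Ccr9- rescued and 6.27% of Ccr9- control cells.

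Epcam and Rln3 showed no such sharing. Epcam was found in 18.3% of rescued Ccr9+ cells (14.2 to 23.0%) and 17.7% of Ccr9- cells, a ratio of 1.04, and in control cells the ratio was 0.66 on 4 Ccr9+ cells. Rln3 was found in 3 of the 322 rescued Ccr9+ cells (0.932%) and 2.57% of Ccr9- cells. In control it was found in 0 of the 110 Ccr9+ cells, where 3 counts would be a share of 2.73% and the exact interval reaches 3.30%, and in 0.491% of Ccr9- cells. For Lilrb4a the ratio was 1.37 in rescued and 2.66 in control cells, the latter on 5 Ccr9+ cells, with overlapping intervals in both. Rln3, Lilrb4a and Epcam, the members with the largest rescued to control ratios, were therefore not those with the largest ratios for Ccr9, while Ccr9 itself stood at a log2 ratio of 2.14 between the libraries.

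**Figure D3:**
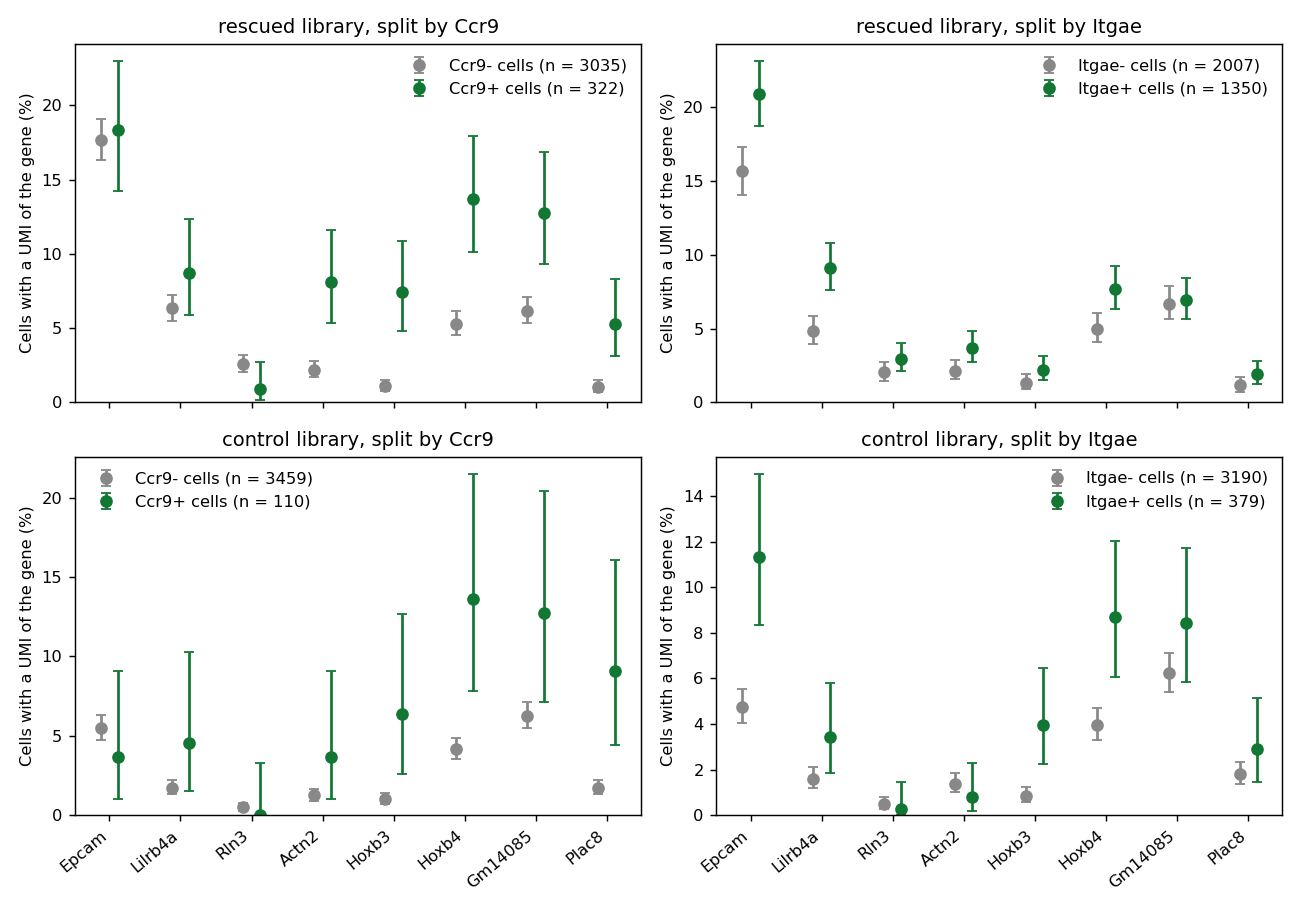
Share of cells with a UMI of each gene among cells with and without a UMI of Ccr9 (left) or Itgae (right), in the rescued (top) and control (bottom) library thinned to 2000 UMIs per cell (points are shares, bars are 95% exact binomial intervals, cell numbers in the legends). Hoxb3, Hoxb4 and Plac8 sit higher in Ccr9+ cells of both libraries, and Epcam sits higher in Itgae+ cells of both.

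Itgae was far more common than Ccr9. An Itgae UMI was found in 1350 rescued cells (40.2%) and 379 control cells (10.6%). Of the 7 members in 50 or more rescued cells, 4 were at least 1.5-fold higher in Itgae+ cells, where 1.23% of genes were. In the control library 4 of 5 were, where 6.2% of genes were. The rescued 4 were Lilrb4a, Actn2, Hoxb3 and Hoxb4, and the control 4 were Epcam, Hoxb4, Lilrb4a and Plac8. The rescued count depended on the thinning. Over all 8 members it was 5 in the single thinning used here and 3 as the expectation over all thinnings. Lilrb4a was found in 9.11% of rescued Itgae+ cells (7.63 to 10.8%) and 4.83% of Itgae- cells (3.94 to 5.86%), a ratio of 1.89 that was 1.38 as the expectation over all thinnings. Epcam was found in 20.9% and 15.6% of rescued Itgae+ and Itgae- cells, and in 11.3% and 4.73% of control ones, with intervals apart in both libraries and ratios of 1.34 and 2.40. Hoxb3 had a ratio of 4.68 in control cells, on 15 Itgae+ and 27 Itgae- cells, and of 1.65 in rescued cells. The rescued ratio was 2.04 as the expectation over all thinnings and 3.07 as counted. Gm14085 had a ratio of 1.04 in rescued cells, the lowest of the 8. The difference between the libraries in these ratios was not tested. Ccr9 and Itgae overlapped with each other, since 59.6% of rescued Ccr9+ cells and 38.2% of Ccr9- cells had an Itgae UMI.

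Few cells had a UMI of more than 1 of the 8 genes. Each gene was itself found in a minority of cells, and what independent genes would give was not computed. In the rescued library at equal depth, 63.3% of cells had none of them, 29.0% had 1, 6.79% had 2, 29 cells had 3 and 3 cells had 4. In the control library 79.7% had none. Of the 28 pairs, 18 had a ratio above 1 in rescued cells and 14 in control cells. The share of all genes above 1 was not computed, so nothing is read from these counts. Among the 21 pairs of members in 50 or more cells, 7 had a ratio of 1.5 or more, where 7.8% of all genes reached this with a member. In control cells 4 of 10 pairs did, where 10.6% of genes did. For 3 pairs the intervals of cells with and without the partner were apart, and they were the same pairs in both libraries. Hoxb3 and Hoxb4, neighbours on chromosome 11, were the first. Hoxb4 was found in 11 of 42 control cells with Hoxb3 (26.2%, 13.9 to 42.0%) and in 4.20% of those without, and in rescued cells in 9 of 57 (15.8%, 7.48 to 27.9%) and 5.91%. Gm14085 and Plac8 formed another pair. Plac8 was found in 5.26% of rescued cells with Gm14085 (2.75 to 9.01%) and 1.18% of cells without, and in control cells in 6.06% (3.35 to 9.96%) and 1.65%. The surface proteins Epcam and Lilrb4a made the last of these. Lilrb4a was found in 10.6% of rescued cells with Epcam (8.22 to 13.3%) and 5.69% of cells without, and in control cells in 4.64% and 1.63%. Hoxb3 and Epcam in turn showed a ratio of 1.11 in rescued cells.

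The state of the cells that carried each gene was read from 27 genes of resting, activated and specialised Treg cells, and from tdTomato, at equal depth. Resting Treg cells keep Ccr7 and S1pr1, which guide them through lymph nodes, with the transcription factors Klf2 and Tcf7. Rescued cells with Epcam had fewer cells with a UMI of each of these. Ccr7 was found in 8.72% of them and in 14.3% of cells without Epcam, Klf2 in 20.1% and 33.8%, S1pr1 in 9.06% and 16.1%, and Ly6c1 in 0.336% and 3.88%. Cells with Lilrb4a went the same way, with Ccr7 in 5.91% against 13.8% and Klf2 in 18.6% against 32.2%. Of the effector genes, Il10 and Areg had intervals apart for Lilrb4a in rescued cells. Il10, an immunosuppressive cytokine, was found in 5.00% of rescued cells with Lilrb4a (2.52 to 8.77%) and 1.498% of cells without, and Areg, the tissue repair factor amphiregulin, in 5.00% and 1.82%. For the killer cell genes Klrg1, Gzma and Gzmb the intervals overlapped in rescued cells, and the ratios were 1.78, 2.52 and 0.815. In control cells Klrg1 was found in 15.6% of the 64 cells with Lilrb4a (7.76 to 26.9%) and 1.97% of cells without. These intervals were apart, and those of Gzma and Gzmb overlapped there too. Cd44, a marker of antigen experience, was found in 26.8% of rescued cells with Lilrb4a and 17.7% of cells without. The control library gave the same order for these resting genes, with Klf2 in 24.7% of cells with Epcam and 58.8% of cells without, and in 26.6% of cells with Lilrb4a and 57.5% of cells without.

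Gm14085 and Plac8 were found in cells of another kind. Ikzf2 encodes Helios, a transcription factor of most thymus-derived Treg cells. It was found in 66.7% of rescued cells with Gm14085 (60.1 to 72.8%) against 86.8% of cells without, and in 59.2% of cells with Plac8 (44.2 to 73.0%) against 85.9%. In control cells the shares were 52.4% against 71.9% for Gm14085 and 52.2% against 71.03% for Plac8. S100a4, a calcium-binding protein of migratory effector cells, was found in 5.70% of rescued cells with Gm14085 and 23.6% of cells without, and in 6.12% and 22.7% for Plac8. In control cells this held for Gm14085 (3.90% against 11.7%) and not for Plac8 (11.6% against 11.2%). In contrast Il2ra, the high affinity chain of the interleukin-2 receptor, was found in 57.5% of rescued cells with Gm14085 and 39.2% of cells without, and in 63.3% and 40.1% for Plac8. The control shares were 44.2% and 33.3% for Gm14085, and 44.9% and 33.8% for Plac8, where the intervals overlapped. Lrrc32, which encodes GARP and holds latent TGF-beta on the Treg surface, was found in 38.2% against 23.3% for Gm14085 and 40.8% against 24.1% for Plac8 in rescued cells, and its intervals overlapped for Plac8 and for Gm14085 in control cells. Il4ra was found in 40.8% of cells with Plac8 and 21.7% of cells without. Ccr7 was found in 21.5% of rescued cells with Gm14085 and 12.7% of cells without, the reverse of Epcam and Lilrb4a.

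The Hox genes and Actn2 each shared part of these patterns. Hoxb3 went with Lrrc32, at a ratio of 1.75 in rescued and 2.03 in control cells, with intervals that overlapped in the latter by a small part. It went with less Klf2 in both libraries, with intervals apart, at 14.04% against 31.6% in rescued and 33.3% against 57.2% in control cells. Hoxb4 went with Il2ra in both libraries, at 52.9% against 39.6% in rescued and 44.7% against 33.5% in control cells. Actn2 was low in Ccr7 (4.30% against 13.5%) and went with Ccr6, a chemokine receptor of gut and inflamed tissue (14.0% against 6.71%). Neither was seen in control cells, where Ccr7 stood at a ratio of 1.001 and Ccr6 was found in 1 of 47 cells with Actn2. Ikzf2 was not lower with Hoxb3 or Actn2, with ratios of 1.03 and 1.05 in rescued cells. Rln3 differed from cells without it most clearly in Il2ra, found in 27.2% (17.9 to 38.2%) against 40.8% in rescued cells, but in control cells in 41.2% against 34.0%, on 17 cells with Rln3. Mki67, a marker of dividing cells, had a ratio of 2.41 with Rln3 in rescued cells, with intervals that overlapped.

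**Figure D4:**
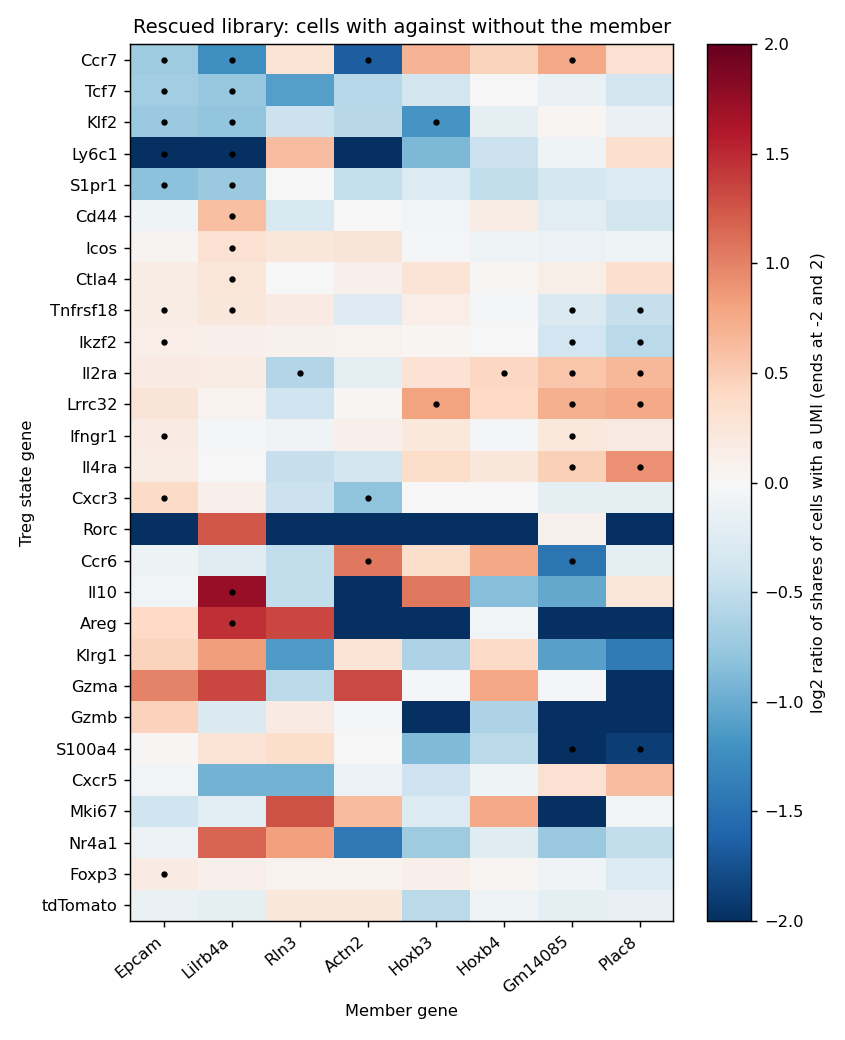
For the rescued library thinned to 2000 UMIs per cell, log2 ratio of the share of cells with a UMI of each Treg state gene (rows) in cells with against cells without each of the 8 genes (columns). The colour scale ends at -2 and 2, a gene found in 0 cells with the member is drawn at -2, and dots mark ratios whose exact binomial intervals do not overlap. Epcam and Lilrb4a share low Ccr7, Klf2 and S1pr1, and Gm14085 and Plac8 share low Ikzf2 and S100a4 with high Il2ra and Lrrc32.

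By a fixed rule, the genes most like each member were those with the highest ratio of shares in rescued cells with against without it, among genes in 100 or more cells and in 10 or more with the member. For Epcam these were 2310022A10Rik (ratio 2.05), Lilrb4a (1.86) and Smpd5 (1.85), and for Lilrb4a they were Oas1a (2.85), Rnf25 (2.62) and Egr2 (2.59). Egr2 is a transcription factor induced by T cell receptor signals. For Actn2 the first was Ccr9 (3.08), followed by Ctla2a (3.01) and Asb2 (2.90). Ccr9 was also second for Hoxb3 (4.66) after Zfp141 (4.99), second for Hoxb4 (2.45) after Pgm3 (2.84), and for Plac8 it stood at 3.76 after Rundc3a (5.40) and Gbp2b (4.13). Gbp2b, an interferon-induced guanylate-binding protein, was named for 3 members. It was found in 42.9% of rescued cells with Plac8 and 10.4% of cells without, in 33.3% and 10.5% for Hoxb3 (ratio 3.19), and in 32.5% and 9.27% for Gm14085 (ratio 3.502). For Gm14085 the others were Spry1 (3.71), an inhibitor of growth factor signalling, and Actn1 (3.05). The remaining gene for Hoxb4 was Ripk2 (2.40), and those for Rln3 were Tcn2 (3.37), Fgd3 (3.18) and Crebl2 (3.13), each on 10 to 15 cells.

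The cells were then split by the tdTomato reporter. Cells with a tdTomato UMI numbered 2287 of the control (62.9%) and 1894 of the rescued library (55.9%). The share of these UMIs that was free RNA was not measured and cells can lack a UMI by low capture, so tdTomato+ and tdTomato- here mean with and without a UMI and are not a measure of descent. In the control library 2 of the 6 members with 100 or more UMIs, Lilrb4a and Plac8, were at least 1.5-fold higher in tdTomato+ cells, where 2.37% of genes were. These cells were deeper (median 3930 against 3508 UMIs), and in cells thinned to 2000 UMIs neither was past that limit, with log2 ratios of 0.51 for Lilrb4a and 0.25 for Plac8. In the rescued library 0 of 8 were, where 0.905% of genes were. Lilrb4a stood at 13.0 CPM in tdTomato+ and 7.83 CPM in tdTomato- control cells, a log2 ratio of 0.73 (0.21 to 1.28), and at 39.4 and 49.4 CPM in rescued cells, a log2 ratio of -0.32 (-0.55 to -0.10). Plac8 gave 0.59 (0.18 to 1.01) in control and -0.40 (-0.76 to -0.05) in rescued cells. The value of Plac8 in rescued cells turned to 0.17 when cells were thinned to 2000 UMIs. Epcam was higher in tdTomato+ control cells by 0.48 (0.18 to 0.78) on the log2 scale, and in rescued cells gave -0.14 (-0.28 to 0.0021). Hoxb3 and Hoxb4 were lower in tdTomato+ rescued cells, by log2 ratios of -0.52 (-1.02 to -0.018) and -0.25 (-0.49 to -0.0053). The intervals of Rln3, Actn2 and Gm14085 held 0 in both libraries. The difference between the libraries in these ratios was not tested.

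**Figure D5:**
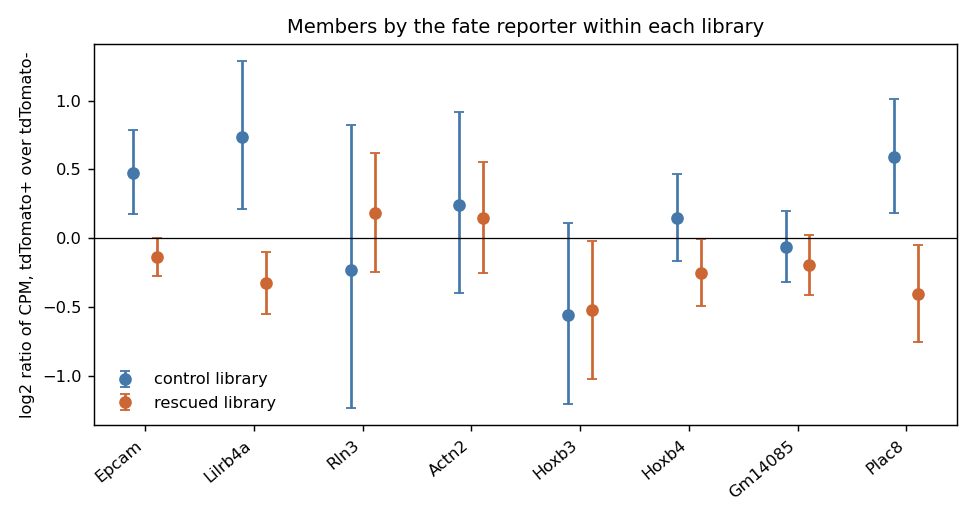
The log2 ratio of CPM in cells with against cells without a tdTomato UMI, for each gene in the control and the rescued library (points are ratios, bars are 95% conditional exact intervals for counting error). Lilrb4a and Plac8 lie above 0 in the control library and below 0 in the rescued library.

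The rescued to control ratio, the contrast that chose the genes, was also read within each reporter class, as a description only. In tdTomato+ cells alone it was 1.67 for Epcam, 1.60 for Lilrb4a, 2.50 for Rln3 and 1.14 for Actn2 on the log2 scale. In tdTomato- cells the same genes gave 2.28, 2.66, 2.08 and 1.24. Plac8 differed in sign, with -0.35 (-0.66 to -0.04) in tdTomato+ and 0.64 (0.20 to 1.09) in tdTomato- cells.

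Relatives and neighbours of the members were examined for shared reads and for a shared direction. Lilr4b, a relative of Lilrb4a that lies near it on chromosome 10, had 43 control and 196 rescued UMIs, a log2 ratio of 2.18 (1.70 to 2.69). It was found in 12.7% of rescued cells with Lilrb4a and 1.66% of cells without. Of the windows of 96 bases (the length of a read) in the last 500 bases of the Lilrb4a transcripts, 221 of 1590 occur unchanged in Lilr4b, so the counts of these genes are uncertain where reads fall there. Gm14085 likewise shares 151 of 810 windows with Slc28a2. Slc28a2 itself had a log2 ratio of 0.08 (-0.04 to 0.21), and was found in 12.7% of rescued cells with Gm14085 and 13.8% of cells without. Control cells went the other way, at 17.7% (13.0 to 23.3%) and 12.0% (10.9 to 13.2%), with intervals that overlapped by a small part. Actn2 shares 0 windows with Actn1 or Actn4. Actn1, the alpha-actinin of non-muscle cells, went the other way, with 1984 control and 523 rescued UMIs, a log2 ratio of -1.93 (-2.07 to -1.79), and Actn4 stood at -0.01. In rescued cells Actn1 was found in 4.30% of cells with Actn2, which is 4 cells, and 6.28% of cells without. Control cells gave 27.7% and 21.6%, the other direction, and the intervals overlapped in both libraries.

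The other Hox genes were nearly silent. Of the 15 Hox genes in the table, Hoxb3 and Hoxb4 were the only ones to reach 100 UMIs. The next was Hoxc9, with 12 control and 25 rescued UMIs, and Hoxb2, on the other side of Hoxb3, had 3 and 4. Hoxb3os, which overlaps Hoxb3 on the other strand over 803 of 1566 such windows, had 3 and 8 UMIs. Of 5 Pbx, Meis and Pknox cofactors with 100 or more UMIs none passed 2-fold, and 3 lay above and 2 below 0 with a median log2 ratio of 0.37. Pbx3 stood at 0.93 (0.59 to 1.27), Meis3 at 0.53, Pknox1 at -0.32 and Pbx2 at -0.47 (-0.60 to -0.34). Rln3 ends 339 bases before the start of Il27ra, in the same direction. Il27ra, an interleukin-27 receptor chain, had 2185 control and 2466 rescued UMIs, a log2 ratio of 0.17. An Il27ra UMI was found in 25.9% of rescued cells with Rln3 and 26.8% of cells without, and the genes share 0 windows. Of the relaxin family the only other gene with 100 or more UMIs was Insl6, at a log2 ratio of 0.13. Calm2, next to Epcam, stood at 0.02, and the genes next to Plac8, Cops4 and Coq2, at -0.02 and -0.07.

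Lists of genes that bear on these members were set beside them. Of 10 gut homing and residency genes with 100 or more UMIs, 4 were at least 2-fold higher and 0 at least 2-fold lower, where 1.72% of all genes were higher and 0.992% lower, with a median log2 ratio of 0.37. Those 4 were Ccr9, Itgae, Gpr15 and Ccr10, and this contrast was known when the list was made. Of 7 retinoic acid genes 0 were, with a median of 0.17 and Rxra, a retinoid receptor, at 0.74. Of 13 TGF-beta genes 0 were higher and 1, the co-receptor Tgfbr3, was lower (-1.16), with a median of 0.07 and Lrrc32 at 0.96. Of 4 nucleoside transporters including Gm14085, 0 passed 2-fold in either direction. Among epithelial adhesion genes, Cd9 stood at -1.54, and Cdh1, Cldn3, Cldn4 and Tspan8 had between 0 and 11 UMIs per library. The markers of epithelium (keratins, claudins and Cdh1) together gave 2.07 CPM in the control and 2.51 CPM in the rescued library, of which Cdh1 had 2 and 11 UMIs, while Epcam alone gave 31.2 and 113.

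Markers of other blood cells were read in the cells that carried each member. Siglech and Cox6a2 of plasmacytoid dendritic cells, which also carry Ccr9, gave no UMI in the counts used here. Cd34 and Flt3, markers of blood stem cells, likewise gave none, and the stem cell markers that had a UMI summed to 3.88 CPM in control and 4.38 CPM in rescued cells. The myeloid list gave 169 CPM in control and 203 CPM in rescued cells, of which Cst3, a protease inhibitor that many cells make, held 98.2% and 98.1%, and 7 and 6 of its 8 markers had a UMI. A myeloid UMI was found in 46.9% of rescued cells with Plac8 (32.5 to 61.7%) and 32.4% of cells without, and in 38.2% and 32.2% for Lilrb4a. In control cells it was found in 42.2% of cells with Lilrb4a (29.9 to 55.2%) and 27.0% of cells without. A UMI of the CD8 T or NK cell list was found in 15.6% of control cells with Lilrb4a (7.76 to 26.9%) and 6.65% of cells without. A B cell marker UMI was found in 16.1% of rescued cells with Actn2 (9.32 to 25.2%) and 7.97% of cells without. The part of such RNA in these results was not tested beyond leaving out cells with 2 or more marker UMIs, 802 control and 1021 rescued. This filter read the B cell, myeloid, plasmacytoid dendritic, mast or basophil, erythroid and epithelial markers as counted, with Cst3 holding most myeloid UMIs. The CD8 T or NK and stem cell lists were not part of it. After this filter 4 members stood at least 2-fold higher as before. Plac8 then stood at 0.35 on the log2 scale, in place of -0.01, and the ratio of Actn2 with Ccr9 in control cells at 0.933.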

How the data were processed

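Per the submitters' processing notes, the authors used Cell Ranger 3.0 and Seurat 3.1.5 with the mouse build GRCm38. The deposited table holds whole UMI counts of 16098 genes in 7024 cells, not normalized, and cells were assigned to libraries by the prefix of their names, and all were used. The filter on mitochondrial RNA in the study's methods does not show in it, since 1405 control and 1142 rescued cells exceeded 10%. The authors also deposited log2 values, which were not used here. The members and the lists were chosen with earlier results of these data known. Level is the summed count over the library total (CPM), with conditional exact 95% intervals for ratios and exact binomial (Clopper-Pearson) intervals for shares. Cells were thinned without replacement to 2000 UMIs with a fixed seed. Code (Python 3.11.15, numpy 2.4.6, scipy 1.17.1) was tested on simulated data. Named genes were all 8 members, Ccr9, Itgae, Foxp3, tdTomato, list genes with 100 or more UMIs, state genes and the 3 most alike genes per member, with T cell receptor, immunoglobulin, mitochondrial and ribosomal protein genes left out. List genes below that minimum were named after their values were seen. Some genes of the lists are not reported here. Gene positions come from GENCODE vM21 (GRCm38), and promoters from RefSeq (GRCm38.p6).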

Additional observations from a re-analysis of the deposited data

Results flagged for a closer look

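The ratio of tdTomato+ to tdTomato- cells had opposite signs in the control and rescued libraries, with intervals for counting error that left out 0 in both, for 2 of the 8 genes and for Ccr9. On the log2 scale Lilrb4a gave 0.73 in control and -0.32 in rescued cells, and Plac8 gave 0.59 and -0.40. Ccr9 gave -0.62 and 0.38, the reverse order. The difference between the libraries was not tested, since each is 1 library. This rule was applied only to the 8 genes, Ccr9 and Itgae. How many of all genes would meet it was not computed, so nothing is read from the count. For Plac8 the rescued value was 0.17 after thinning and -1.10 with 4 or more tdTomato UMIs against 0, so its sign there depended on the processing.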

How the results depend on the processing

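No paired analysis was possible because there is only 1 library on each side. A value is called moved here if it fell outside the counting interval reported for it, and a count if it changed by more than 1.5 times. Of the counts and shares that answer a comparison 40 stayed and 7 moved, and of single-gene values 291 stayed, 35 moved and 2 reversed. The number of members at least 2-fold higher in rescued cells was 4 under all alternatives but 1, cells with a Foxp3 UMI, where it was 3. Members at least 1.5-fold higher in Itgae+ rescued cells numbered 3, not 5, at 1000 UMIs per cell and as the expectation over all thinnings to 2000, and pairs with a ratio of 1.5 or more numbered 7, not 11, at 1000 UMIs. In sums thinned to 2000 UMIs, members at least 1.5-fold higher in tdTomato+ cells numbered 0 in control and 1 in rescued cells, not 2 and 0. Lower minimums gave 3.38% of genes 2-fold higher in rescued cells and 3.03% of genes 1.5-fold higher in Itgae+ rescued cells. Lilrb4a with Itgae in control cells reversed to a ratio of 0 at 1000 UMIs, and Plac8 by tdTomato in rescued cells to 0.17 at 2000 UMIs; the cause was not tested. Within strata of Itgae and Ccr7, chosen after the data were seen, Epcam stood at 1.52, Lilrb4a at 1.47 and Hoxb3 at 0.22 on the log2 scale. The planned strata and subset by another resting gene were not run, as that gene is not reported here. Depth limits the rare genes most, since Rln3, Hoxb3, Actn2 and Plac8 were found in 17 to 93 thinned cells per library.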
